A study of Homo sapiens with 24 samples.

Results

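The genes of the cytosolic ribosomal proteins were examined across 3 human leukemia lines. They were taken by symbol: RPL or RPS followed by a number and an optional A, X, L, AL or L1, together with RPLP0, RPLP1, RPLP2 and RPSA. Of 25728 gene symbols in the count files 85 matched, and 81 of these reached at least 1 CPM (counts scaled to a library of 1e+06) in at least 4 of the 24 libraries. These 81 members encode 50 proteins of the large subunit and 31 of the small subunit, and 6 of them are paralogs of another member: RPL22L1, RPL39L, RPL26L1, RPL7L1, RPL36AL and RPS27L. RPL39L reached 1 CPM in 16 libraries, the fewest of any member, and none of these were UCSD-AML1 libraries. Among the 4 symbols below the floor were RPL21, with at most 0.405 CPM in a library, RPL3L (0.377 CPM) and RPL10L (0.263 CPM). RPL21 has 137 named pseudogenes, and the sources used here do not say how reads shared with them were counted. All 81 members passed the filter on low counts in the fit described here.

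The series compares cyclocreatine with vehicle in TF-1, UT-7 and UCSD-AML1, which its design describes as acute myeloid leukemia lines driven by EVI1, a transcription factor encoded by MECOM. Each line was given 3 mM cyclocreatine for 24 h or vehicle for 24 h, which makes 6 groups of 4 libraries. Creatine kinases accept cyclocreatine, an analog of creatine, as a substrate. The labels name no genetic change made to the cells, and each line is a single established line, so differences between lines are differences between these 3 lines.

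The cytosolic ribosome joins a large and a small subunit, each built from ribosomal RNA and many proteins that are needed in matching amounts. Most of their messages begin with a C followed by a run of pyrimidines, the 5′ terminal oligopyrimidine (TOP) motif, through which mTORC1 signalling and LARP1 control their translation and stability together. In blood cells the dose of single ribosomal proteins matters: loss of a copy of RPS19, RPL5, RPL11 or RPS26 causes Diamond-Blackfan anemia, a failure of red cell production.

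The start of the message was therefore read for the members held in the RefSeq promoter table (GRCh38.p14). It held 66 of the 81, and among the 15 without an entry were RPL23, RPL23A, RPL30, RPL37, RPL39L, RPL5, RPL7, RPL8, RPS15A, RPS2 and RPS20. The motif searched was a C at the annotated start that begins an unbroken run of at least 5 C or T on the gene's strand, counted from that C onwards. It stood at the start of 42 of the 66 members (63.6%), of 569 of 10513 genes tested in the fit (5.41%) and of 1104 of 27305 promoters in the table (4.04%). When such a run could begin within 5 bases on either side of the start, 51 members (77.3%) held one, against 22.9% of genes tested and 21.1% of all promoters. The letters CGGAAG, which belong to the motif of ETS family factors, looked for on either strand from 250 bases before to 50 bases after the start, were in 42 of the 66 members (63.6%), in 31.7% of genes tested and in 19.9% of all promoters. The 10 bases before and the 20 bases from the start are printed for RPL13A and RPL14, for the paralogs that have an entry, beside the parents that have one, and for RPS26, to show the starts of members at both ends of the range of responses. Capitals mark the pyrimidine run from the annotated start, and a line without capitals has none. RPL36AL begins with a C whose run from the start is shorter than 5 bases, so it does not count among the 42, though it does among those with a run near the start. The starts are those of RefSeq and were not mapped in these cells.
RPL13A, chr19:49487598-49487627, plus strand: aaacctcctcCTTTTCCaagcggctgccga
RPL14, chr3:40457329-40457358, plus strand: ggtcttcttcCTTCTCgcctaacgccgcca
RPL22L1, chr3:170870176-170870205, minus strand: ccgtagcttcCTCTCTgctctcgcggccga
RPL22, chr1:6199576-6199605, minus strand: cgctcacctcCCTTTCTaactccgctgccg
RPL36AL, chr14:49620607-49620636, minus strand: tcttccctttCCTgttaggcgagagctgcg
RPL36A, chrX:101391001-101391030, plus strand: ctcgcggtttCTTTCTTTCCgcgccgatag
RPL26L1, chr5:172958719-172958748, plus strand: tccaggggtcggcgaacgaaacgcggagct
RPL26, chr17:8383174-8383203, minus strand: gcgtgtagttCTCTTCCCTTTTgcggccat
RPS27L, chr15:63157458-63157487, minus strand: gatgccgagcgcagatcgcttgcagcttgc
RPS27, chr1:153990752-153990781, plus strand: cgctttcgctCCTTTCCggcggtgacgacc
RPL7L1, chr6:42879606-42879635, plus strand: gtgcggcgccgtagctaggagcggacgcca
RPS26, chr12:56041908-56041937, plus strand: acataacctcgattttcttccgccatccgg

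Library totals ran from 12794998 to 21200662 counts. Counts of all 36 replicate pairs differed by more than sampling noise (chi-square per degree of freedom 1.29 to 19.3), so each library was counted as a sample. The pairs with replicate 1 of TF-1 cyclocreatine lay at the top of that range. The main TF-1 counts and medians and a number of single genes are therefore also given without that library. All other TF-1 values include it, and the median response of the members was smaller without it. The labels do not say that replicates were separate cultures, so a p-value here reflects the spread of these samples alone, which may be technical. Erythroid markers were higher in TF-1 and UT-7 than in UCSD-AML1: GATA1 averaged 142 CPM in cyclocreatine and 149 CPM in vehicle libraries of TF-1, 247 CPM in cyclocreatine and 277 CPM in vehicle libraries of UT-7, and 16.8 CPM in cyclocreatine and 21.3 CPM in vehicle libraries of UCSD-AML1. TFRC, the transferrin receptor of the same list, averaged 2214 CPM in cyclocreatine and 5220 CPM in vehicle libraries of TF-1, 1990.0 CPM in cyclocreatine and 3627 CPM in vehicle libraries of UT-7, and 365 CPM in cyclocreatine and 589 CPM in vehicle libraries of UCSD-AML1. It moved with the treatment, and its part in the results was not tested. Of the lymphoid markers MS4A1 had 0 counts in every library, and CD3E and CD8A averaged at most 2.74 CPM in a group. The stromal marker COL1A1 averaged at most 2.27 CPM. Epithelial and endothelial markers were not all low. In vehicle libraries KRT18 averaged 166 CPM in TF-1 and 94.6 CPM in UCSD-AML1, and CDH1 22.9 CPM in UT-7. VWF (215 CPM) and CDH5 (263 CPM) were high in UCSD-AML1, and PECAM1 averaged 51.8 to 67.9 CPM across the lines. Whether other cells were present was not tested.

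Under cyclocreatine the ribosomal protein genes took a larger share of all counts in each line. In TF-1 they held 10.2%, 8.40%, 8.41% and 8.45% of counts in the 4 cyclocreatine libraries, against 6.26%, 6.54%, 6.39% and 6.37% in vehicle. In UT-7 they held 7.37%, 7.15%, 6.81% and 7.37% in cyclocreatine libraries, against 6.05%, 6.01%, 6.06% and 5.83% in vehicle. In UCSD-AML1 they held 7.08%, 7.21%, 7.29% and 7.25% in cyclocreatine libraries, against 6.19%, 6.04%, 5.96% and 6.12% in vehicle. No cyclocreatine library reached down to a vehicle library of its line, and replicate 1 of TF-1 cyclocreatine stood well above the rest. Without it the TF-1 cyclocreatine share averaged 8.42% ± 0.03 (SD, n = 3), against 6.39% ± 0.11 in vehicle (SD, n = 4). These are shares of a library, so more message per cell and less of other messages cannot be told apart, and neither can a change in RNA per cell.

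Large and small subunit genes stood in nearly the same ratio with and without cyclocreatine. In TF-1 the large subunit genes held 5.27% ± 0.51 of counts in cyclocreatine and 3.80% ± 0.07 in vehicle libraries, and the small subunit genes 3.59% ± 0.36 in cyclocreatine and 2.59% ± 0.05 in vehicle libraries (SD, n = 4 each). The ratio of large to small subunit counts was 1.468 ± 0.007 in cyclocreatine and 1.468 ± 0.008 in vehicle TF-1 libraries. It was 1.189 ± 0.008 in cyclocreatine and 1.192 ± 0.011 in vehicle libraries of UT-7, and 1.390 ± 0.004 in cyclocreatine and 1.387 ± 0.009 in vehicle libraries of UCSD-AML1. Within each line the treated and vehicle libraries overlapped in this ratio, while the 3 lines did not overlap with each other. RPS6, which counts in the small subunit sum, averaged 5618 CPM in UT-7 vehicle libraries, against 2035 CPM in TF-1 and 2641 CPM in UCSD-AML1. This single gene weighs on the low UT-7 ratio, and the ratio without RPS6 was not computed. Without replicate 1 the TF-1 cyclocreatine ratio was 1.471 ± 0.006 (SD, n = 3). The ratio is one of read counts and not of proteins or of messages per length.

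**Figure D1:**
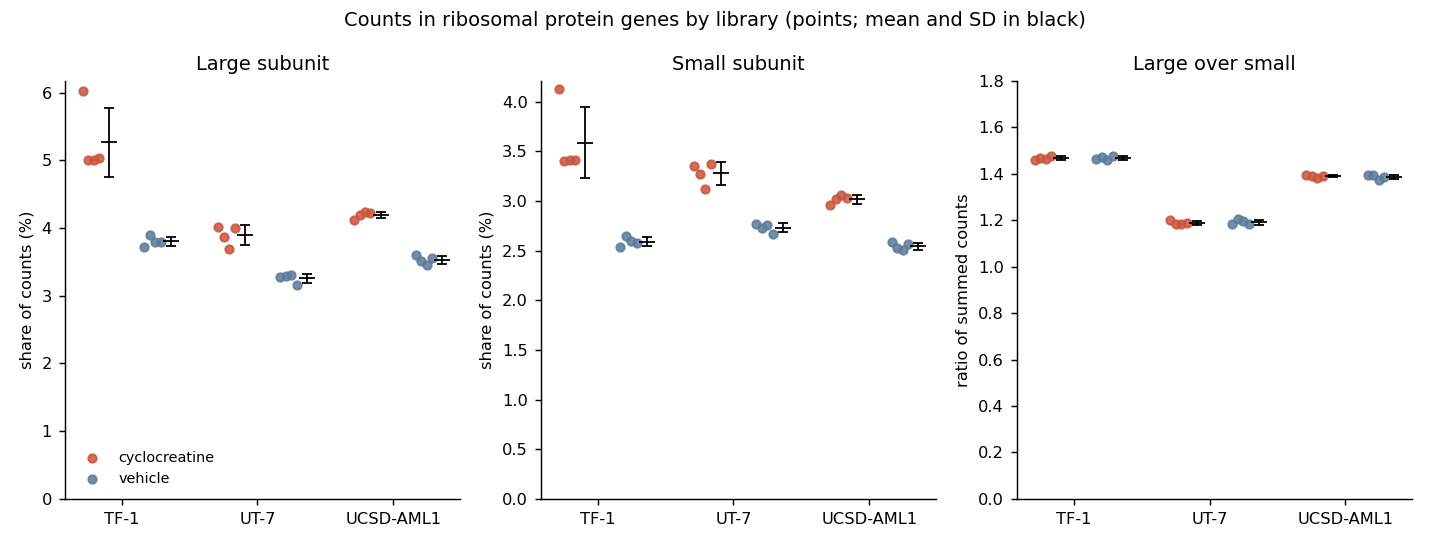
Share of all counts (%) in large subunit and small subunit genes, and the ratio of the summed counts, for each library of the 3 lines; points are libraries, with cyclocreatine left of vehicle, and black marks are the mean and SD of 4 libraries. Shares are higher in cyclocreatine than in vehicle libraries of every line, the ratio is 1.468 in both TF-1 groups, and replicate 1 of TF-1 cyclocreatine has the highest point in both shares.

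Gene by gene, changes were tested with edgeR's quasi-likelihood test on the counts, with Benjamini-Hochberg adjustment over all 14588 genes tested, and called at an adjusted p under 0.05. In TF-1, 80 of 81 members rose, where 26.7% of all genes tested did, and none fell, where 29.3% of all genes did. None fell at an unadjusted p under 0.05 either, nor with limma-voom or DESeq2. The median log2 fold change was 0.57 over the members, with the central 50% between 0.51 and 0.61, and -0.01 over all genes tested. All 4 cyclocreatine libraries lay above all 4 vehicle libraries for 77 members, which held for 19.3% of all genes tested. Scaled by library totals alone in place of TMM, calls over all genes split into 3001 higher and 5225 lower in place of 3901 and 4272. Relative to the mean of the vehicle libraries, the median member stood at a log2 difference of 0.80 in replicate 1 of TF-1 cyclocreatine and at 0.46, 0.48 and 0.47 in the others. Without replicate 1, 78 members rose with a median of 0.48, and RPL26L1, RPS26 and RPL7L1 did not pass.

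The largest rise among the members belonged to RPL22L1, a paralog that can take the place of RPL22 in the large subunit. It had 201, 175, 171 and 164 CPM in TF-1 cyclocreatine libraries, against 62.2, 64.7, 63.1 and 62.2 CPM in vehicle. The 2 groups were far apart in each library, and the log2 fold change was 1.496 ± 0.053 (SE, edgeR adjusted p = 1.33e-23). It was 1.43 ± 0.04 without replicate 1.

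RPL13A, a large subunit protein that in human monocytes also silences translation of some inflammatory messages, had 788, 656, 655 and 631 CPM in TF-1 cyclocreatine libraries, against 342, 363, 377 and 364.5 CPM in vehicle. Its groups did not overlap, and the log2 fold change was 0.92 ± 0.05 (SE, edgeR adjusted p = 5.64e-17), or 0.84 ± 0.03 without replicate 1. RPL36A, a large subunit protein with 52 named pseudogenes, lay low, with 9.24, 9.72, 8.21 and 11.8 CPM in cyclocreatine libraries, against 4.92, 5.24, 5.01 and 5.57 CPM in vehicle (log2 fold change 0.92 ± 0.11, edgeR adjusted p = 7.98e-09). Its groups did not overlap, and without replicate 1 the log2 fold change was 0.95 ± 0.12. The sources used here do not say how reads were shared between RPL36A and its pseudogenes. RPL27A, a large subunit protein, averaged 1227 ± 161 CPM in cyclocreatine and 763 ± 17.8 CPM in vehicle libraries (log2 fold change 0.69 ± 0.05). Its log2 fold change was 0.59 ± 0.03 without replicate 1. The other 76 members that rose in TF-1 had log2 fold changes from 0.18 to 0.68.

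At the low end in TF-1 stood RPS26, which lines the channel where the message leaves the small subunit. It had 114, 101, 88.9 and 86.9 CPM in cyclocreatine libraries, against 80.1, 90.8, 89.7 and 83.3 CPM in vehicle. The groups overlapped, the log2 fold change was 0.18 ± 0.06 (SE, edgeR adjusted p = 0.00693), and without replicate 1 it was 0.10 with adjusted p = 0.0579. RPL7L1, a relative of RPL7 whose yeast counterpart Rlp7 is an assembly factor of the large subunit, had 75.1, 97.2, 83.5 and 82.6 CPM in cyclocreatine libraries, against 87.5, 88.2, 93.3 and 85 CPM in vehicle. These overlapped too, and RPL7L1 was the only member that did not pass in TF-1 (log2 fold change -0.07 ± 0.05, adjusted p = 0.310). Its value passed as a decrease when libraries were scaled by their totals alone (-0.15, adjusted p = 0.0269) and when replicate 2 of cyclocreatine was left out (-0.14, adjusted p = 0.0224).

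In UT-7, 74 of 81 members rose, where 22.5% of all genes tested did, and 1 fell, where 23.3% did. The median log2 fold change was 0.31 over the members and 0.00 over all genes. The groups were fully separated upwards for 73 members, against 23.3% of all genes. Again RPL22L1 rose most, with 39.5, 36.4, 32.0 and 36.9 CPM in UT-7 cyclocreatine libraries, against 22.3, 22.8, 24.4 and 21.0 CPM in vehicle. The groups did not overlap (log2 fold change 0.67 ± 0.07, edgeR adjusted p = 1.27e-10). RPL13A followed with 361, 342, 311 and 349 CPM in cyclocreatine libraries, against 231, 230.3, 237 and 229.6 CPM in vehicle (0.55 ± 0.05, adjusted p = 4.46e-11). RPL17, at the rim of the tunnel through which the nascent chain leaves, and RPL12, at the base of the stalk, rose by 0.45 and 0.42 on the log2 scale.

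The member that fell in UT-7 was RPL7L1. It had 74.2, 75.4, 81.2 and 75.8 CPM in cyclocreatine libraries, against 84.1, 86.7, 84.6 and 85.5 CPM in vehicle. All treated libraries lay below all vehicle libraries, with a log2 fold change of -0.15 ± 0.06 (SE, edgeR adjusted p = 0.0236). The call was lost without vehicle replicate 2 or cyclocreatine replicate 1, 2 or 4 (adjusted p between 0.0534 and 0.0709). The members that did not pass were RPL39L (-0.07), RPS27L (-0.03), RPS26 (0.03), RPL23 (0.08), RPL26L1 (0.09) and RPL36A (0.14), 3 of them paralogs. RPL23, a large subunit protein that can bind MDM2, had 646, 617, 594 and 641 CPM in cyclocreatine libraries, against 598, 602, 592 and 579 CPM in vehicle, and the groups overlapped. It passed when UT-7 was fitted alone (edgeR adjusted p = 0.0141).

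In UCSD-AML1, 74 of 81 members rose, where 19.1% of all genes tested did, and 1 fell, where 21.3% did. The median log2 fold change was 0.26 over the members and 0.00 over all genes. The groups were fully separated upwards for 77 members, against 21.1% of all genes. The largest rise was that of RPS28, a small subunit protein near the exit of the message, with 155, 158, 155 and 168 CPM in cyclocreatine libraries, against 124, 120.3, 109 and 109 CPM in vehicle. The groups did not overlap (log2 fold change 0.46 ± 0.08, edgeR adjusted p = 0.000114). RPL22L1 had 125, 126, 128 and 123 CPM in cyclocreatine libraries, against 98.6, 89.7, 94.7 and 92.1 CPM in vehicle (0.42 ± 0.05, adjusted p = 2.68e-08). RPL13A had 474, 463, 492 and 493 CPM in cyclocreatine libraries, against 395, 389, 367.5 and 384 CPM in vehicle (0.32 ± 0.05, adjusted p = 1.88e-06). RPL12 and RPS21, a small subunit protein, both rose by 0.38. When a trend on transcript length was removed from each library, the UCSD-AML1 median was 0.16.

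RPL7L1 fell in UCSD-AML1 as well, with 69.5, 64.2, 68.6 and 67.0 CPM in cyclocreatine libraries, against 69.8, 78.7, 79.7 and 71.4 CPM in vehicle. The highest treated library lay just under the lowest vehicle library (log2 fold change -0.15 ± 0.06, edgeR adjusted p = 0.0264). The call was lost without vehicle replicate 2 or 3 or cyclocreatine replicate 2 or 4 (adjusted p between 0.0537 and 0.110) and with a trend on GC content removed (adjusted p = 0.0628). RPS10 (0.26), RPS26 (0.13) and RPS27A (0.09) did not pass although all treated libraries lay above all vehicle libraries, and RPS27L (0.07), RPL26L1 (0.04) and RPL39L did not pass with overlapping groups. RPS27A, made as a fusion with ubiquitin, had 378, 381, 385 and 380.3 CPM in cyclocreatine libraries, against 363.5, 356, 349.9 and 357.5 CPM in vehicle (adjusted p = 0.0856). With UCSD-AML1 fitted alone RPS10 (edgeR adjusted p = 0.000495), RPS26 (0.000249) and RPS27A (0.000396) passed as higher.

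**Figure D2:**
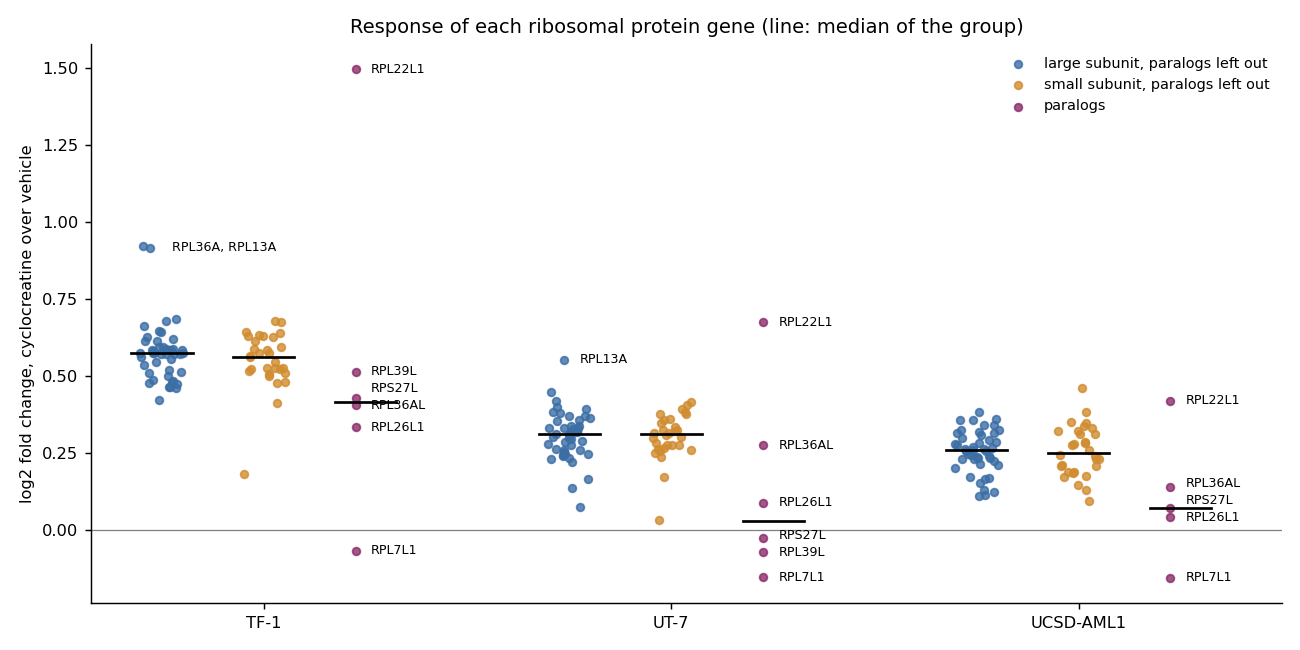
Log2 fold change of cyclocreatine over vehicle for each member in each line, for large subunit, small subunit and paralog genes; points are genes and lines are medians of the points drawn. RPL39L is not drawn in UCSD-AML1, where its vehicle libraries hold 0 counts. The medians of large and small subunit genes lie at 0.57 and 0.56 in TF-1, 0.31 and 0.31 in UT-7 as well as 0.26 and 0.25 in UCSD-AML1, and the paralogs spread from RPL22L1 at the top to RPL7L1 at the bottom.

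Leaving out the paralogs, all 45 large subunit genes rose in TF-1 (median 0.57), 43 rose in UT-7 (0.31) and 45 in UCSD-AML1 (0.26). Of the 30 small subunit genes that are not paralogs, 30 rose in TF-1 (0.56), 29 in UT-7 (0.31) as well as 27 in UCSD-AML1 (0.25). Of the 6 paralogs 5 rose in TF-1 (median 0.42). RPL26L1 rose by 0.33 on the log2 scale there with overlapping libraries (edgeR adjusted p = 0.0137), and not without cyclocreatine replicate 1 (0.0942). In UT-7 (median 0.03) and UCSD-AML1 RPL22L1 and RPL36AL rose and RPL7L1 fell. The UCSD-AML1 call of RPL36AL (0.14) was lost without vehicle replicate 4, without cyclocreatine replicate 3 and with the length trend removed. Over the 81 members 72 rose in each of the 3 lines, and the other 9 were RPL23, RPL26L1, RPL36A, RPL39L, RPL7L1, RPS10, RPS26, RPS27A and RPS27L. No more than 19.1% of all genes tested can have risen in each of the 3, since that share rose in UCSD-AML1. The 72 include RPL5, RPL7 and RPL36AL, whose UCSD-AML1 calls were lost with the length trend removed. RPL7 also lost its call there without cyclocreatine replicate 2 (edgeR adjusted p = 0.0524).

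By role in the ribosome, most members rose. The stalk, where RPLP0 anchors RPLP1 and RPLP2 beside RPL12 and translation factors are recruited, rose in all 4 members in each line, with medians of 0.52 in TF-1, 0.26 in UT-7 as well as 0.35 in UCSD-AML1. RPLP1 had 4064, 3176, 3171 and 3249 CPM in TF-1 cyclocreatine libraries, against 2359.5, 2542, 2436 and 2423 CPM in vehicle, and the groups did not overlap. RPL5 and RPL11, which bind 5S ribosomal RNA and can together hold MDM2 away from p53, both rose in each line, by 0.42 and 0.62 on the log2 scale in TF-1, 0.24 and 0.30 in UT-7 as well as 0.13 and 0.21 in UCSD-AML1, where RPL5 lost its call with the length trend removed. Without cyclocreatine replicate 1 of TF-1 their changes there were 0.37 and 0.53. The 9 proteins along the exit tunnel and its rim rose in all lines (medians 0.58, 0.33 and 0.24), among them RPL39, which narrows the tunnel (0.59, 0.31 and 0.28), and RPL38, which in mouse is needed for translation of some Hox messages (0.58, 0.29 and 0.28). RPS2 and RPS3 at the entry of the message both rose in each line. Of the 6 decoding and tRNA site genes 6 rose in TF-1, 5 in UT-7 as well as 5 in UCSD-AML1, and RPS26 was the one that did not pass.

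Of the 17 measured genes mutated in Diamond-Blackfan anemia 17 rose in TF-1 (median 0.55), 16 in UT-7 (0.30) and 15 in UCSD-AML1 (0.25). RPS19, the one most often mutated, had 2210.0, 1604, 1627 and 1656 CPM in TF-1 cyclocreatine libraries, against 1171, 1213, 1208 and 1166 CPM in vehicle. Its groups did not overlap in any line, and its log2 fold changes were 0.58 ± 0.07, 0.26 ± 0.07 and 0.35 ± 0.07 in TF-1, UT-7 and UCSD-AML1. The TF-1 value was 0.45 ± 0.03 without cyclocreatine replicate 1. RPS6, the small subunit protein that S6 kinases phosphorylate, had 6962, 6843, 6353 and 7054 CPM in UT-7 cyclocreatine libraries, against 5756, 5548, 5604 and 5562 CPM in vehicle. It rose by 0.53, 0.28 and 0.21 on the log2 scale in TF-1, UT-7 and UCSD-AML1. RPSA, at the platform of the small subunit and also known as a laminin receptor, rose by 0.60, 0.32 and 0.33, RPS4X by 0.51, 0.30 and 0.19, and RPL10, which joins the large subunit late, by 0.56, 0.34 and 0.36.

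Introns of 28 members host 58 annotated small nucleolar or Cajal body RNAs. Of the 28 hosts 28 rose in TF-1 (median 0.58), 27 in UT-7 (0.33) and 28 in UCSD-AML1 (0.27), and of the other 53 members 52 rose in TF-1 (0.55), 47 in UT-7 (0.29) as well as 46 in UCSD-AML1 (0.25). The small RNAs themselves were not analysed here.

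The members whose RefSeq start carries the pyrimidine run differed little from the others in the median and more in the count. With the run within 5 bases of the start, 51 of 51 members rose in TF-1, 50 in UT-7 as well as 50 in UCSD-AML1, with medians of 0.58, 0.31 and 0.26. Of the 15 members without it 14 rose in TF-1, 11 in UT-7 as well as 10 in UCSD-AML1, with medians of 0.51, 0.28 and 0.19. These 15 were RPL6, RPL7L1, RPL9, RPL10, RPL13, RPL15, RPL17, RPL26L1, RPL27, RPS4X, RPS15, RPS26, RPS27A, RPS27L and RPS29. The printed starts show the case of the paralogs: RPL22L1 begins with a run and rose in all lines, and RPL7L1, RPS27L and RPL26L1 have none there. RPL26L1 and RPS27L rose in TF-1 and passed in neither of the other lines, while RPL7L1 did not rise in any line. RPL17, RPL10 and RPS29 have no run either and rose in all lines. No test was made of this difference.

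**Figure D3:**
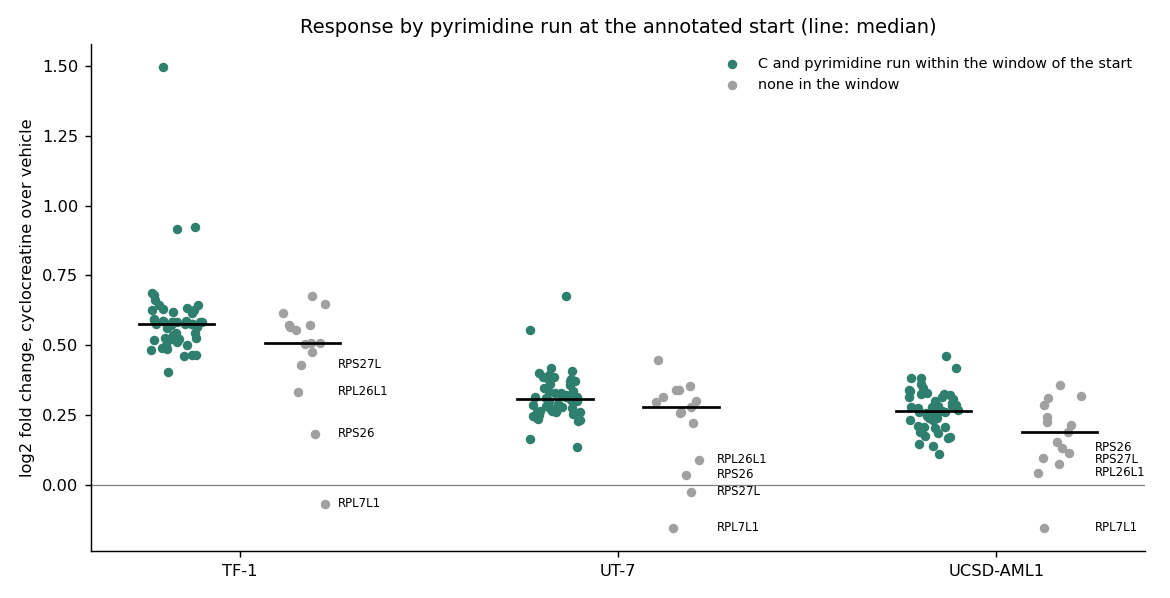
Log2 fold change of cyclocreatine over vehicle in each line for the 66 members with a RefSeq promoter entry, split by a C and pyrimidine run within 5 bases of the annotated start (51 genes) or none there (15 genes); points are genes and lines are medians. The 15 genes without a run include RPL7L1, the lowest point in each line, and for the most part overlap the others.

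The paralogs were set against their parents by the log2 ratio of their counts within each library, which is free of library scaling. An exact two-sided permutation test over the 70 arrangements of 4 against 4 libraries was run for 17 comparisons in 6 pairs, and the smallest p it allows is 0.0286. That value was reached 9 times, giving a Benjamini-Hochberg adjusted p of 0.0540, so none passed. A ratio compares the same 2 genes across libraries and not their levels. RPL22L1 to RPL22 was -2.22 ± 0.04 in cyclocreatine and -3.14 ± 0.04 in vehicle libraries of TF-1 (SD, n = 4 each, here and for the other pairs). It was -4.12 ± 0.08 in cyclocreatine and -4.52 ± 0.10 in vehicle libraries of UT-7, and -2.33 ± 0.03 in cyclocreatine and -2.49 ± 0.03 in vehicle libraries of UCSD-AML1. All treated libraries lay above all vehicle libraries in each line, with differences of 0.92, 0.40 and 0.16. RPL22 itself rose by 0.57, 0.28 and 0.26. In mouse RPL22 is known to hold down the expression of RPL22L1.

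RPL7L1 to RPL7 lay lower under cyclocreatine, with -3.37 ± 0.27 in cyclocreatine and -2.73 ± 0.09 in vehicle libraries of TF-1. It was -3.10 ± 0.08 in cyclocreatine and -2.63 ± 0.04 in vehicle libraries of UT-7, and -3.05 ± 0.08 in cyclocreatine and -2.77 ± 0.10 in vehicle libraries of UCSD-AML1. All treated libraries lay below all vehicle libraries in each line, with differences of -0.64, -0.47 and -0.28. RPS27L, a target of p53 and paralog of RPS27, had a ratio of -3.54 ± 0.06 in cyclocreatine and -3.16 ± 0.04 in vehicle libraries of UT-7, and its libraries were fully separated there (difference -0.39). In TF-1 and UCSD-AML1 its libraries overlapped, with differences of -0.09 and -0.21. RPL39L, a testis-enriched paralog of RPL39, had a lower ratio in every cyclocreatine library than in any vehicle library of UT-7 (difference -0.38) and overlapped in TF-1 (-0.06). RPL36AL, a close relative of RPL36A, had a lower ratio in TF-1 (-0.49, fully separated) and overlapped in UT-7 (0.14) and UCSD-AML1 (-0.17). RPL26L1 to RPL26 overlapped in each line, with differences of -0.31, -0.31 and -0.20 in TF-1, UT-7 and UCSD-AML1.

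**Figure D4:**
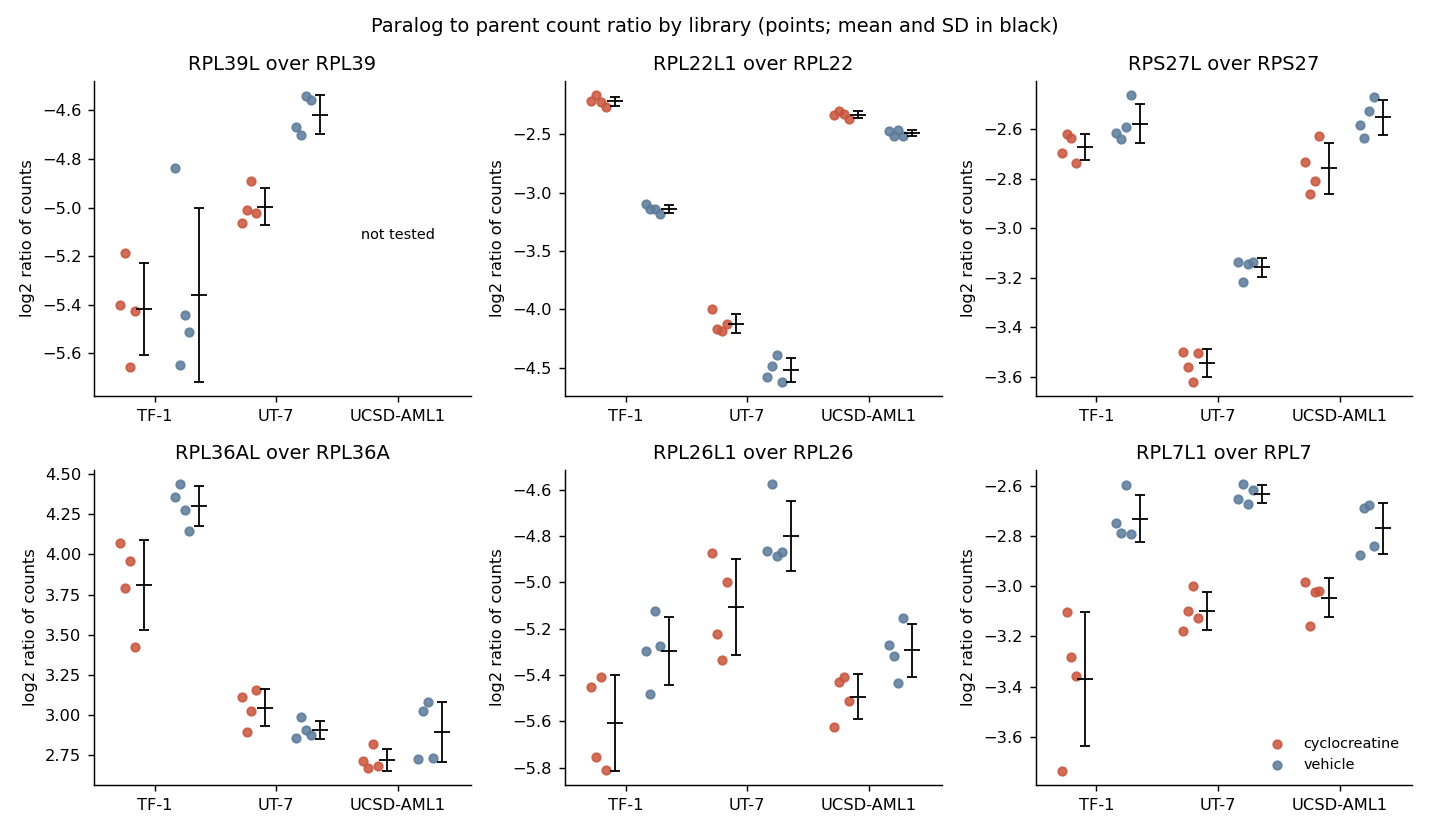
Log2 ratio of paralog to parent counts in each library of the 3 lines, for 6 pairs; points are libraries, with cyclocreatine left of vehicle, and black marks are the mean and SD of 4 libraries. The ratio of RPL22L1 to RPL22 is higher under cyclocreatine in each line (by 0.92, 0.40 and 0.16), and that of RPL7L1 to RPL7 is lower in each line (differences -0.64, -0.47 and -0.28); RPL39L was not tested in UCSD-AML1.

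The rise in TF-1 was larger than in the other lines for most members. As an interaction in the same fit, the response in TF-1 exceeded that in UT-7 for 69 of 81 members, where 14.3% of all genes tested were higher, and fell short for none, where 13.2% were lower (median difference 0.25). It exceeded that in UCSD-AML1 for 70 members, where 14.8% of all genes were higher, and fell short for none, where 14.3% were lower (median 0.31). None was lower at an unadjusted p under 0.05 or with limma-voom or DESeq2 in either comparison. Without replicate 1 of TF-1 cyclocreatine the counts were 69 and 70 and the medians 0.17 and 0.21. The 2 comparisons share the TF-1 libraries. With library totals alone, calls over all genes split 1637 higher and 2312 lower in place of 2089 and 1922 against UT-7, and 1329 and 2766 in place of 2156 and 2086 against UCSD-AML1. UT-7 and UCSD-AML1 were much closer: 4 members responded more in UT-7, where 11.5% of all genes tested were higher, and none less, where 11.5% were lower (median 0.06), so the share of members higher was below that of all genes in this fit. None was lower there at an unadjusted p under 0.05 or with the other tools. This did not hold when the trend on transcript length was removed: 30 members then responded more in UT-7, where 12.7% of all genes tested did. With the trend on GC content removed 8 members did, where 11.2% of all genes did. The lengths used are those of annotated transcripts and are uncertain for some members. RPL37 (7686 bases), RPS27L (6434) and RPL27A (4916) lie far above the member median of 881 and may not match the usual message.

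RPL22L1 differed most, by 0.82 ± 0.09 between TF-1 and UT-7 (SE, edgeR adjusted p = 3.41e-09) and by 1.08 ± 0.07 between TF-1 and UCSD-AML1 (3.88e-14). Without replicate 1 these were 0.76 ± 0.07 and 1.01 ± 0.06. Between UT-7 and UCSD-AML1 it differed by 0.25 (adjusted p = 0.0269), which did not pass with limma-voom (0.0607), with the GC trend removed (0.203) or without any of 5 libraries in turn (0.0505 to 0.0870). RPL36A differed by 0.79 ± 0.15 (TF-1 minus UT-7, adjusted p = 0.000109) and 0.62 ± 0.15 (TF-1 minus UCSD-AML1, 0.00121). RPL13A differed by 0.59 ± 0.07 between TF-1 and UCSD-AML1 (4.22e-08) and by 0.23 between UT-7 and UCSD-AML1 (0.0149). RPL39L (0.59 ± 0.18, adjusted p = 0.0150) and RPS27L (0.46 ± 0.08, 4.23e-05) rose in TF-1 and not in UT-7, and their differences passed. Without replicate 1 of TF-1 cyclocreatine, TF-1 minus UT-7 was 0.82 for RPL36A, 0.49 for RPL39L and 0.39 for RPS27L. TF-1 minus UCSD-AML1 was then 0.66 for RPL36A and 0.52 for RPL13A. Each of these differences passed without that library (edgeR adjusted p at most 0.0216). RPL15, a large subunit protein, and RPL7 responded more in UT-7 than in UCSD-AML1, by 0.23 (adjusted p = 0.00136) and 0.19 (0.0121). RPL17 had a difference of 0.24 ± 0.09 there and did not pass (adjusted p = 0.0640). It passed with the length trend removed (0.0215), without UT-7 cyclocreatine replicate 2 (0.0428) and without UCSD-AML1 vehicle replicate 4 (0.0250).

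**Figure D5:**
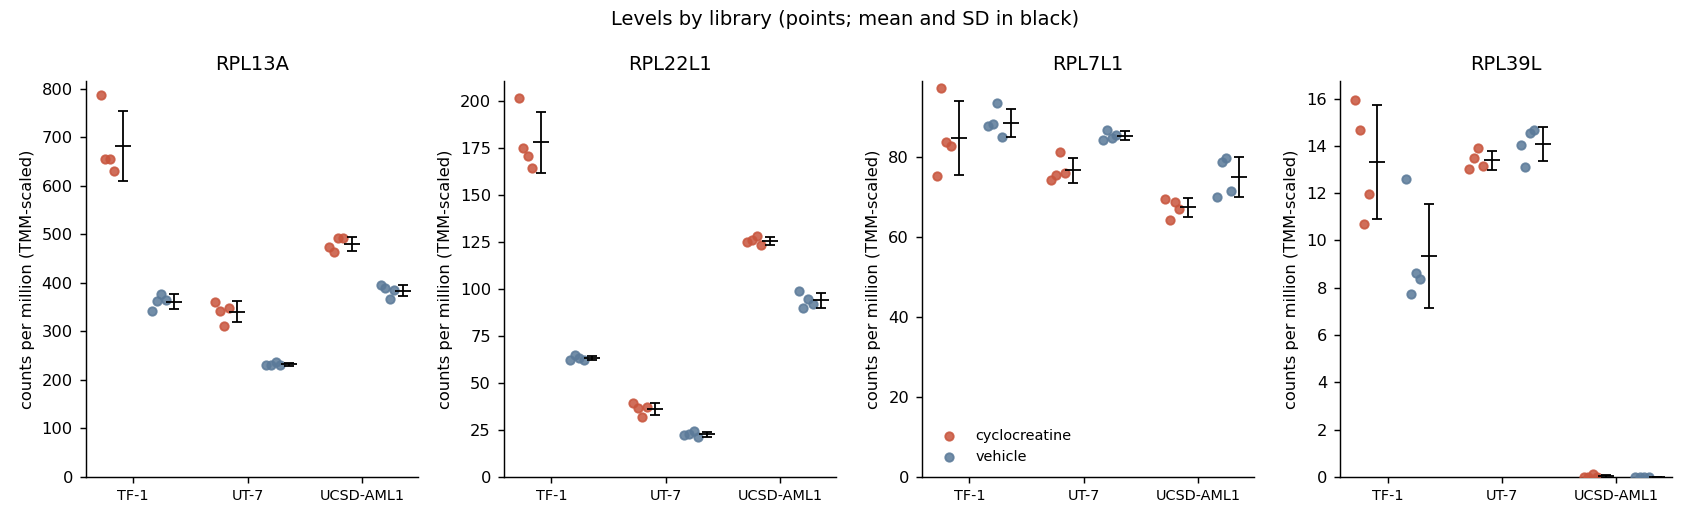
CPM of RPL13A, RPL22L1, RPL7L1 and RPL39L in each library of the 3 lines; points are libraries, with cyclocreatine left of vehicle, and black marks are the mean and SD of 4 libraries. RPL13A and RPL22L1 are fully separated in each line, RPL7L1 lies lower under cyclocreatine in UT-7 and UCSD-AML1, and RPL39L is at or near 0 in UCSD-AML1.

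In vehicle libraries the lines already differed in single ribosomal protein genes, with no direction common to the 3 comparisons. TF-1 was higher than UT-7 for 47 members, where 41.0% of all genes tested were higher, and lower for 21, where 38.7% were lower. Most members were thus higher in TF-1 than in UT-7. TF-1 was higher than UCSD-AML1 for 29, where 40.6% of all genes were higher, and lower for 33, where 43.3% were lower. Both shares of members lay slightly below those of all genes there. UT-7 was higher than UCSD-AML1 for 25, where 40.0% of all genes were higher, and lower for 40, where 41.5% were lower. These 3 comparisons share libraries pairwise. The medians were 0.16, 0.01 and -0.04 with RPL39L at its bound, and a difference of at least 2-fold was fitted for 10, 5 and 9 members, where 34.8%, 41.2% and 40.2% of all genes tested were as far apart. Members were thus less often 2-fold apart between lines than genes in general. With library totals alone the first median was 0.084, and with the length trend removed the second was -0.10.

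RPL22L1 was among the most variable members between lines. Its vehicle libraries averaged 63.1 ± 1.18 CPM in TF-1, 22.6 ± 1.41 CPM in UT-7 and 93.8 ± 3.78 CPM in UCSD-AML1 (SD, n = 4 each), and no 2 lines overlapped. The log2 difference was 1.48 ± 0.06 between TF-1 and UT-7 (edgeR adjusted p = 9.83e-23) and -2.05 ± 0.06 between UT-7 and UCSD-AML1 (4.04e-28). RPS7 (1.44) and RPL10 (1.38) were the next highest in TF-1 relative to UT-7, and RPL36 (-1.52), RPS6 (-1.47) and RPL36A (-1.36) the lowest. RPL10 (1.57) and RPLP1 (1.36) were higher in TF-1 than in UCSD-AML1, and RPL36A (-1.40), RPS29 (-0.99) and RPL37A (-0.94) were lower. RPL36 (1.13) and RPS6 (1.09) were higher in UT-7 than in UCSD-AML1, and RPL29 (-1.53) and RPS7 (-1.20) were lower.

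RPL39L was near absent in a single line. It had 252, 210, 150 and 240 counts in TF-1 cyclocreatine libraries, against 197, 115, 145 and 140 in vehicle. It had 181, 175, 193 and 185 counts in UT-7 cyclocreatine libraries, against 199, 190, 229 and 197 in vehicle. In UCSD-AML1 it had 0, 0, 2 and 0 counts in cyclocreatine libraries, against 0 in each vehicle library. A count of 0 allows up to 3 counts per library, and against that floor (0.191 CPM on average) the vehicle mean was at least 48.9-fold higher in TF-1 and at least 73.7-fold higher in UT-7 than in UCSD-AML1. The floor covers counting error only. In TF-1 RPL39L rose under cyclocreatine with overlapping libraries (0.51 ± 0.13, edgeR adjusted p = 0.00109), and in UT-7 it did not pass (-0.07, adjusted p = 0.692). Without cyclocreatine replicate 1 the TF-1 rise of RPL39L was 0.41 ± 0.12 (edgeR adjusted p = 0.0035). Its parent RPL39 was present in all lines, at 377 ± 12.3, 346.5 ± 8.10 and 417.5 ± 10.4 CPM in TF-1, UT-7 and UCSD-AML1 vehicle libraries.

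Genes that act around the ribosome were counted by lists, beside the median of all genes tested, which lay between -0.01 and 0.00 in the 3 lines. Of all genes tested 26.7% rose and 29.3% fell in TF-1, 22.5% rose and 23.3% fell in UT-7, and 19.1% rose and 21.3% fell in UCSD-AML1, and the counts of each list are to be read against these shares. Of further genes of the cytosolic ribosome, FAU, whose small subunit protein is made as a fusion, rose by 0.37, 0.13 and 0.26 on the log2 scale in TF-1, UT-7 and UCSD-AML1, and GNB2L1, which encodes RACK1, rose by 0.50, 0.31 and 0.22. NAP1L1 is in both the list of translation factors and that of assembly factors. Of 24 translation factors and other known TOP messages 22 rose in TF-1, 18 rose and 1 fell in UT-7, and 14 rose and 2 fell in UCSD-AML1 (medians 0.48, 0.26 and 0.12). EEF1A1, which brings tRNA to the ribosome, rose by 0.63, 0.45 and 0.26 on the log2 scale, and EEF2, which moves it along the message, by 0.58, 0.42 and 0.28. Among 77 mitochondrial ribosomal protein genes 48 rose and 6 fell in TF-1, 12 rose and 18 fell in UT-7, and 20 rose and 9 fell in UCSD-AML1 (medians 0.20, 0.00 and 0.05). In UT-7 the share of these that fell was close to that of all genes.

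Counts were more mixed among genes that build ribosomes. Of 61 assembly factors and chaperones 20 rose and 12 fell in TF-1, 5 rose and 40 fell in UT-7, and 8 rose and 23 fell in UCSD-AML1 (medians 0.01, -0.20 and -0.08). The share higher in TF-1 was near that of all genes. SDAD1, whose yeast counterpart Sda1 is needed for export of the large subunit, fell by 0.66, 0.70 and 0.42 on the log2 scale in TF-1, UT-7 and UCSD-AML1, and NPM1, the abundant nucleolar chaperone, rose by 0.50 in TF-1 and 0.24 in UT-7. Of 21 genes of RNA polymerase I and its factors 9 rose and 6 fell in TF-1, 2 rose and 10 fell in UT-7, and 3 rose and 5 fell in UCSD-AML1. The share lower in TF-1 and both shares in UCSD-AML1 were near those of all genes. UBTF, which opens ribosomal DNA for transcription, fell by 0.64, 0.88 and 0.46, and RRN3, which brings the polymerase to it, fell by 0.37, 0.43 and 0.61. TAF1C and TAF1D, of the selectivity factor, rose in each line. Among 15 regulators of TOP messages and ribosome supply 5 rose and 7 fell in TF-1, 3 rose and 4 fell in UT-7, and 1 rose and 5 fell in UCSD-AML1. The shares higher in TF-1 and UT-7 and the share lower in UT-7 were near those of all genes. MYC, which drives ribosome production, fell by 0.20, 0.68 and 0.29, and LARP4 by 0.39, 0.40 and 0.31.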

How the data were processed

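RNA-seq data from 24 libraries were analysed. The deposited files hold raw counts per RefSeq gene symbol, 1 file per library, and no library was pooled. Per the labels, RNeasy kits gave the RNA and a HiSeq the reads. FastQC, TopHat2 and RSEM are listed in the submitters' processing notes, along with GRCh37 and hg19, but not their versions or roles. The sources used here do not say whether strand was used in counting, so members that overlap other genes or have many pseudogenes are uncertain. RPS10, RPL36A and RPL17 overlap read-through symbols that had 0 counts.

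Counts were fitted with edgeR 4.0.16 in R 4.3.3: filterByExpr (smallest count 10, smallest total 15) kept 14588 genes, libraries were scaled by TMM, and all 24 libraries entered 1 model of group means, fitted with the robust option and leaving 18 residual degrees of freedom. CPM used TMM-scaled totals, except for marker genes and the member floor, which used library totals. Each SE was derived from the fit by dividing the absolute log2 change by the root of its F statistic. Replicates are mean ± SD. Contrasts were cyclocreatine minus vehicle in each line, the differences between those, and the first minus the second line in vehicle libraries. The script was tested on simulated data. Alternatives were scaling (library totals, DESeq2 size factors, TMM without the members), limma 3.58.1 voom, DESeq2 1.42.0, no filter, trends on transcript length or GC content (GENCODE transcripts, matched by symbol, for all 81 members), the line fitted alone, a replicate block, an offset of 1 in place of 0.5 in the paralog ratios, and each library left out. Plots used Python 3.11.15 with numpy 2.4.6, pandas 2.3.3 and matplotlib 3.10.9. Starts came from RefSeq (GRCh38.p14), and no coordinate of the count files was used.

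The members, gene lists and rule for named genes were chosen with earlier results of these data known. The rule named RPL13A, the paralogs and parents, the stalk, RPL5, RPL11, RPSA, RPS6, RPS27A, RPS4X, RPS19, RPL10 and RPL38, the 4 largest and 4 smallest changes of members with at least 5 CPM per line, the 4 largest differences per pair of lines, the 3 largest per direction between vehicle groups, members not called or called against the rest, and up to 4 genes of each list. Outside the rule, after their values were seen, RPL15 and RPL7 were named among the 4 members that differed between UT-7 and UCSD-AML1, RPS2 and RPS3 as a pair, and RPL14 for its start. Results for a few genes are not reported here.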

Additional observations from a re-analysis of the deposited data

Results flagged for a closer look

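In 21 of 186 groups of 4 libraries a library lay far from the other 3, where chance alone gives about 5% of groups. Of these, 15 were replicate 1 of TF-1 cyclocreatine, always as the highest library. It held 10.15% of its counts in the members, and there RPL11 had 1900.0 CPM, RPL12 1452 CPM, RPL13A 788.2 CPM, RPL22 937.7 CPM, RPL27A 1469 CPM, RPL38 747.4 CPM and RPL39 674.2 CPM. In the same library RPLP0 had 2884 CPM, RPLP1 4064 CPM, RPLP2 1618 CPM, RPS19 2210.0 CPM, RPS27A 627.1 CPM, RPS4X 2084 CPM and RPS6 3251 CPM. The other 6 were in UT-7 and UCSD-AML1. In cyclocreatine replicate 3 of UT-7 RPS4X (1371 CPM) and RPSA (393.8 CPM) were low. Among UT-7 vehicle libraries RPL12 was low in replicate 4 (444.8 CPM) and RPSA high in replicate 1 (357.7 CPM). In UCSD-AML1 RPS21 was low in cyclocreatine replicate 1 (435.9 CPM), and RPL39L had 0.1292 CPM in cyclocreatine replicate 3 against 0 in the other 3.

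The response differed between lines by the interaction in the edgeR fit. It was larger in TF-1 than in UT-7 for 69 of 81 members, where 14.3% of all genes tested were higher. It was larger in TF-1 than in UCSD-AML1 for 70, where 14.8% were higher. It was larger in UT-7 than in UCSD-AML1 for 4, where 11.5% were higher, so the share of members was below that of all genes. The named log2 differences for TF-1 minus UT-7 were 0.82 for RPL22L1, 0.79 for RPL36A, 0.59 for RPL39L and 0.46 for RPS27L. For TF-1 minus UCSD-AML1 they were 1.08 for RPL22L1, 0.62 for RPL36A and 0.59 for RPL13A. For UT-7 minus UCSD-AML1 they were 0.25 for RPL22L1 and 0.23 for RPL13A.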

How the results depend on the processing

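Over the alternatives run, the members called higher in each line kept their direction and stayed within 1.5 times the main count. With library totals alone 1 member (RPL7L1) fell in TF-1, and the vehicle median of TF-1 over UT-7 was 0.084. With the length trend removed the medians were 0.43, 0.24 and 0.16 in TF-1, UT-7 and UCSD-AML1, 30 members responded more in UT-7 than in UCSD-AML1, and the vehicle median of TF-1 over UCSD-AML1 turned to -0.10. With the GC trend removed the UCSD-AML1 median was 0.22, 0 members fell there, and 8 responded more in UT-7 than in UCSD-AML1. The cause was not tested, and the transcript lengths used are uncertain for some members, among them RPL37, RPS27L and RPL27A. Leaving out 1 library at a time gave 78 to 80 members higher in TF-1, 73 to 74 in UT-7 and 70 to 74 in UCSD-AML1, and 0 to 1 lower in each line. The difference median of TF-1 over UCSD-AML1 ran from 0.21 to 0.33, and 3 to 7 members responded more in UT-7 than in UCSD-AML1. The number of members responding more in TF-1 than in UT-7 ran from 51 to 73, lowest without cyclocreatine replicate 3 of UT-7. RPL26L1 and RPS26 lost their call in TF-1 without cyclocreatine replicate 1, with library totals and with the length trend removed.

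Over all left-out libraries the paralog ratio differences in UT-7 ran from -0.41 to -0.35 for RPL39L, 0.36 to 0.44 for RPL22L1, -0.41 to -0.36 for RPS27L, 0.10 to 0.19 for RPL36AL, -0.39 to -0.23 for RPL26L1 and -0.50 to -0.44 for RPL7L1, and in UCSD-AML1 from 0.15 to 0.17 for RPL22L1, -0.25 to -0.17 for RPS27L, -0.25 to -0.15 for RPL26L1 and -0.31 to -0.24 for RPL7L1. Most of these did not pass. Those that did, at an adjusted p of 0.0486, were RPL39L, RPL22L1, RPS27L and RPL7L1 without UT-7 cyclocreatine replicate 1 or 2, RPL26L1 without replicate 1 (-0.39) and RPL36AL without replicate 2 (0.19). In UCSD-AML1 they were RPL22L1 and RPL7L1 without cyclocreatine replicate 4 or vehicle replicate 3, RPS27L without that cyclocreatine replicate (-0.25) and RPL26L1 without that vehicle replicate (-0.25). Each of these sits at the smallest p the permutation test allows, 0.0286. Whether it passed depended only on how many of the 17 comparisons reached that p together. Leaving out a library changed that number, so these passes say nothing about a single pair.

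Replicate numbers were shared by the groups. Within a line, same-numbered cyclocreatine and vehicle libraries showed little common deviation (correlations -0.05 to 0.07, and 2 of 12 were best with their own number). Both of those 2 were in UCSD-AML1. Numbers were not compared across lines, so whether same-numbered libraries shared a batch was not tested. With the replicate block 80, 74 and 74 members rose (medians 0.56, 0.31 and 0.26) in TF-1, UT-7 and UCSD-AML1, 0, 1 and 1 fell, 64, 69 and 4 responded more in the first line of a pair, and the vehicle counts were 47 higher and 22 lower, 29 and 31, and 25 and 40. Of all 14588 genes in those fits 3739, 3131 and 2659 rose, and 4143, 3287 and 2915 fell. Of these genes 1845, 1923 and 1486 responded more in the first line. Their vehicle counts were 5963 higher and 5616 lower, 5918 and 6304, and 5827 and 6039. No separate share without mitochondrial-encoded genes was computed, because 0 symbols in the files analysed here begin with MT-. Other symbols of such genes were not searched for. Depth limits RPL39L in UCSD-AML1, where no fold of cyclocreatine over vehicle is given and folds of the other lines over it are lower bounds.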
